A study of Mus musculus with 3 samples.

Results

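Rsad2, Cxcl10, Bst2, Saa3 and C1ra are 5 mouse genes of antiviral and innate defence, and they were read as log2 ratios between liver and spleen RNA on 3 two-colour cDNA arrays. They are all genes whose symbol is 1 of these names in the platform's probe annotation, where each had 1 spot, so they make up 5 of 7984 named genes and 5 of 16273 spots. The genes were chosen by their ratios in this same comparison, as 3 higher in liver and 2 higher in spleen, so their values are given below as a description with no test. Each array carried spleen RNA labelled with Cy3 and liver RNA labelled with Cy5. Both were purchased preparations of total RNA, made into cRNA by a double round of amplification, under 1 catalogue number per tissue for all 3 arrays. The strain, age, sex and health of the mice are not in the labels, and nothing says that the arrays came from separate animals or amplifications, so SDs and p-values measure the spread between arrays, which may be technical.

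Interferons are secreted when a cell senses viral nucleic acid, and their receptors signal through JAK kinases and STAT factors to genes that carry an interferon-stimulated response element (ISRE) near their start. Among such genes, Rsad2 encodes viperin, a radical SAM enzyme that makes a chain-terminating nucleotide against viral polymerases. Bst2 encodes tetherin, which holds budding enveloped virions at the cell surface and in unstimulated mice marks plasmacytoid dendritic cells. Cxcl10 encodes a chemokine that draws activated T and NK cells through the receptor CXCR3. Saa3 encodes a serum amyloid A protein of the acute-phase response, known in mice from macrophages and fat as well as liver, and C1ra encodes the C1r protease that starts the classical complement pathway and is made largely in liver.

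The 250 bases before the annotated start were read for each gene from RefSeq (GRCm38.p6), in which all 5 symbols matched. The ISRE core letters GAAANNGAAA, on either strand, occurred in 4 of these 5 windows, against 2.98% of 32851 promoter windows of the same length. Among 17 other interferon-induced genes with a window and a ratio on every array, 2 held the letters. The share in the 5 chosen genes is therefore not that of interferon-induced genes at large. The 4 windows are shown because the same letters stand before genes from both sides of the tissue comparison. Each is written 5′ to 3′ on the strand of the gene, and capitals mark the ISRE letters. Rsad2 (higher in spleen) lies at chr12:26456453-26456702 on the minus strand, Cxcl10 (higher in spleen) at chr5:92348890-92349139 minus, Bst2 (higher in liver) at chr8:71537473-71537722 minus, and Saa3 (higher in liver) at chr7:46715677-46715926 minus.
Rsad2: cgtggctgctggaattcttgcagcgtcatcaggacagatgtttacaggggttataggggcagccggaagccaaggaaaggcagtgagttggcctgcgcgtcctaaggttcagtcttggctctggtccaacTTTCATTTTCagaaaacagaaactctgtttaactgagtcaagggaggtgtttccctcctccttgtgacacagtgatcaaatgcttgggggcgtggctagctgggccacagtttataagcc
Cxcl10: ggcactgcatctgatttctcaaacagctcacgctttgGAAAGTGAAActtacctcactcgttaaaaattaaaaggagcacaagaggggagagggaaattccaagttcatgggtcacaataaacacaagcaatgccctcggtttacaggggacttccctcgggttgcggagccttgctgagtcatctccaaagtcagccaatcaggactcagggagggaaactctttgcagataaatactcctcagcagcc
Bst2: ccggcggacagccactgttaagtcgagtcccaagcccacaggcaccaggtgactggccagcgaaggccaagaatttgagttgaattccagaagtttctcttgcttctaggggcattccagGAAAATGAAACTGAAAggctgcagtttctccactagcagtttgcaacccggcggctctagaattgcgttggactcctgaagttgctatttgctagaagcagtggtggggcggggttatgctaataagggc
Saa3: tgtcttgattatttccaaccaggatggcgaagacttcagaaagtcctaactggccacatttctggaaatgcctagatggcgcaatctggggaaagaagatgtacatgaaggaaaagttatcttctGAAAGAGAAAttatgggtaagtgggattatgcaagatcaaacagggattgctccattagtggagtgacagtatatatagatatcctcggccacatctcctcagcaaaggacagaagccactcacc
In Rsad2 the match was TTTCATTTTC, on the opposite strand, from base 120 to base 111 before the start. Cxcl10 had GAAAGTGAAA from base 213 to base 204, and Saa3 had GAAAGAGAAA from base 125 to base 116. Bst2 held 2 overlapping matches, GAAAATGAAA and GAAACTGAAA, within bases 130 to 115. The window of C1ra (chr6:124512371-124512620, plus strand) held none, which says only that these letters are not in this window.

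Other motifs were searched in the same windows on both strands. The C/EBP letters TTNNGCAA occurred in 9.56% of all windows, and among the 5 genes in Saa3, as TTATGCAA from base 99 to base 92. The letters TTCNNNGAA of a gamma-activated site, held by 7.02% of windows, occurred in Bst2 as TTCCAGGAA, which overlaps its first ISRE match. A loose NF-kB pattern, GGGNNNNNCC, matched in Cxcl10 (GGGAAATTCC, and the overlapping GGGGACTTCC and GGGACTTCCC), in Bst2 (GGGGCATTCC) and in Rsad2 (on the opposite strand), but 45.8% of all windows held it. None of these motifs was found in C1ra. A match is a description of the letters and not of a bound factor.

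Ratios are given as liver over spleen, a direction that is likely rather than stated. The labels give the dyes but not the numerator, and Cy5 over Cy3 is the usual form. The direction was set by 3 marker genes: the fibrinogen chain Fgb averaged 4.14, whereas the B-cell genes Ms4a1 and Ighm averaged -3.93 and -2.73. Between 11120 and 15210 spots had a ratio on an array, an exact 0 was taken as a missing ratio, and none of the 5 genes was listed at 0. All 4 B-cell markers tested were higher in spleen and all 3 hepatocyte markers in liver, but these counts include Ms4a1, Ighm and Fgb, whose sides that choice fixed. Of 4 T and NK cell markers, 3 were called higher in spleen, whereas Cd3d, a chain of the T-cell receptor complex, was called higher in liver (1.24, adjusted p = 0.000698 in limma's test). Cd3d was picked out after its value was seen. Alb, Siglech, Adgre1 and Clec4f were not analysed here. Across 5731 genes with a ratio on all 3 arrays, the median of the mean log2 ratio was -0.03 and the median SD over arrays was 0.22. In limma's moderated test 3146 of them (54.9%) passed a Benjamini-Hochberg adjusted p of 0.05, 27.1% as higher in liver and 27.8% as higher in spleen. Without array 1 those counts were 936 in liver and 937 in spleen, against 1551 and 1595. The shares over all 3 arrays are the background for the marker counts above and for every count below from the same fit. Counts under other settings have another background, because the calls over all genes changed there too. A gene that passed is named as called.

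Rsad2 was higher in spleen on every array, and its size varied more than that of the other 4 genes. Among all 5731 tested genes, 75.9% had the same sign on all 3 arrays, which is the background for Rsad2 and each gene below. The log2 ratio of Rsad2 was -2.86 on array 1, -1.98 on array 2 and -1.55 on array 3. Array 1 stood lowest, at 7.25-fold higher in spleen, and array 3 was nearest to 0, at 2.93-fold. The mean was -2.13 ± 0.67 (SD, n = 3 arrays), or 4.38-fold higher in spleen, and 5.08% of tested genes had a larger SD. Counted from the spleen end of the 5731 genes, Rsad2 ranked 49th on array 1, 212th on array 2 and 282nd on array 3. The mean lay between -2.42 and -1.77 when 1 array was left out. A bulk RNA ratio cannot tell fewer cells of a type from less RNA per cell, here and for each gene below.

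Cxcl10 was likewise higher in spleen, with closer arrays. Its log2 ratio was -1.49 on array 1, -1.46 on array 2 and -1.82 on array 3. Arrays 1 and 2 nearly coincided and array 3 lay lower, which is the reverse of the position of array 3 for Rsad2. The mean was -1.59 ± 0.20 (SD, n = 3), or 3.01-fold higher in spleen. From the spleen end its rank was 372 on array 1, 451 on array 2 and 169 on array 3. Its clone was the only one of the 5 with an AV accession, the others having AK accessions.

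Bst2, although interferon-induced like both of these, was higher in liver. The log2 ratio was 1.62 on array 1, 1.94 on array 2 and 1.16 on array 3. All 3 values lay above 0, but Bst2 was chosen as a gene higher in liver. The mean was 1.57 ± 0.39 (SD, n = 3), or 2.97-fold higher in liver, and 407th from the liver end. Of 4 plasmacytoid dendritic cell markers tested, Lair1 (-1.44 ± 0.36), Tcf4 (-0.99 ± 0.26) and Ccr9 (-0.64 ± 0.25) were called higher in spleen and Cox6a2 (0.58 ± 0.27) higher in liver. The median of the 4 was -0.81. Of the Tcf4 clones, 1 had a value on array 3 only (0.23), and the others averaged -1.43, -0.36 and -1.52. Without array 1 the calls of Ccr9 and Cox6a2 were lost (adjusted p = 0.106 and 0.130), and that of Ccr9 also without array 3 (0.0568); over the alternatives the 2 ran from 0.000753 to 1.0. Another 3 markers of these cells had a ratio on 1 or 2 arrays and were not tested, and all had values above 0. Spib was at 1.11 and 0.77 on arrays 2 and 3, and Irf8 (0.30) and Smim5 (0.27) had a ratio on array 3 only. Most listed genes with a ratio on array 3 only had a small positive value, whatever their list, such as Casp4 (0.29), Socs3 (0.29) and Des (0.26). Cxcl12 (-0.14) and Sting1 (-0.04) lay below 0. The sign of Irf8 and Smim5 therefore says little about these cells. The part of these cells in the Bst2 ratio was not tested.

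Saa3 had the largest ratio of the 5 genes and the smallest spread. Its log2 ratio was 2.73 on array 1, 2.93 on array 2 and 2.88 on array 3. The 3 arrays lay within 0.21 of each other. The mean was 2.85 ± 0.11 (SD, n = 3), or 7.20-fold higher in liver, and 82.6% of tested genes had a larger SD. Its rank from the liver end was 164, 131 and 108 on arrays 1, 2 and 3. Saa1, Saa2 and Saa4, related genes that follow Saa3 on the chromosome, were not analysed here, and whether their RNA bound to the Saa3 clone was not tested. The macrophage markers Cd68 (0.12) and Csf1r (0.49) had a ratio on array 3 only and C1qa on arrays 2 and 3 (0.74 and 0.16), so none of the 3 was tested.

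C1ra was higher in liver on each array, with a narrow spread. The log2 ratio was 2.11 on array 1, 2.31 on array 2 and 2.07 on array 3. No array stood apart, and all 3 lay above the values of Bst2 and below those of Saa3. The mean was 2.16 ± 0.13 (SD, n = 3), or 4.47-fold higher in liver, with ranks of 273, 223 and 225 from the liver end. C1rb, a close copy of C1ra nearby on the chromosome, was not analysed here, and cross-binding to the C1ra clone was not tested.

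**Figure D1:**
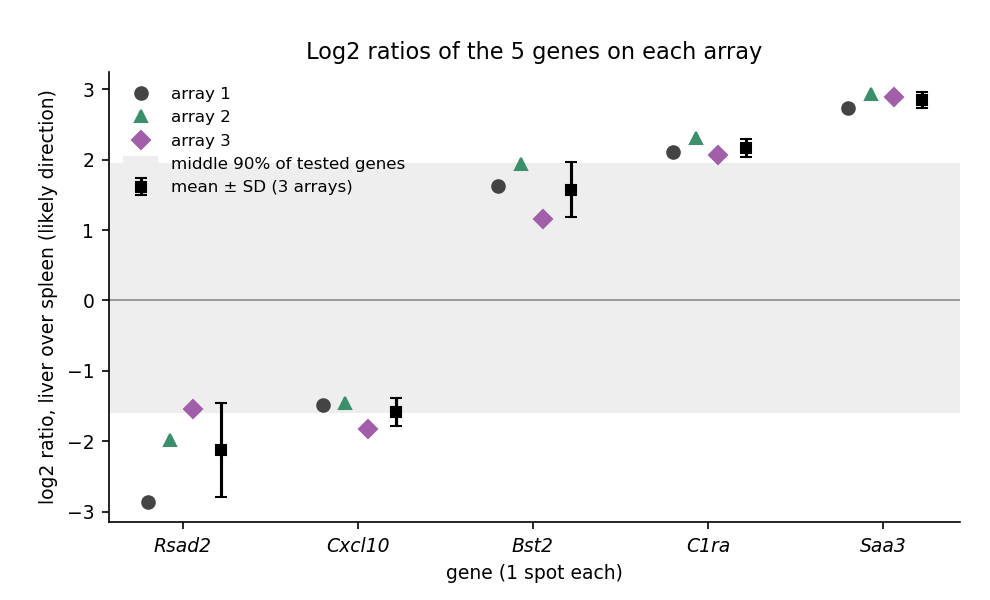
Log2 ratio of liver over spleen (likely direction) for the 5 genes, with 1 symbol per array and a square with bars for the mean ± SD of 3 arrays; the grey band spans the middle 90% of mean ratios of tested genes, from -1.59 to 1.93. Rsad2 spreads from -2.86 to -1.55, whereas the 3 values of Saa3 lie between 2.73 and 2.93.

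In order from spleen to liver the means were -2.13 for Rsad2, -1.59 for Cxcl10, 1.57 for Bst2, 2.16 for C1ra and 2.85 for Saa3. Rsad2 and Cxcl10 overlapped in their single arrays and were not separated by their spread. The arrays of Bst2, C1ra and Saa3 did not overlap one another, but each was read by 1 clone and no second clone could check a position. The ranks do not depend on how widely an array's ratios were spread, and Saa3 stayed within the outer 1.88% to 2.86% of genes on its side, and C1ra within 3.89% to 4.76%. Bst2 moved between 5.65% and 9.54%, Cxcl10 between 2.95% and 7.87%, and Rsad2 between 0.855% and 4.92%.

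**Figure D2:**
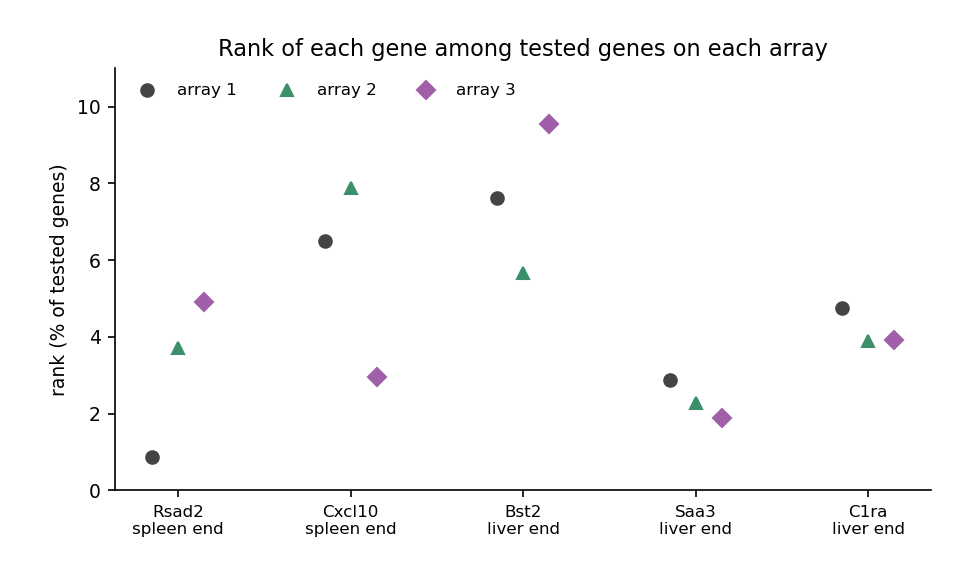
Rank of each gene on each array, as a percent of the 5731 tested genes counted from the end (spleen or liver) on which the gene lies; a low value means few genes with a larger ratio on that side. Saa3 and C1ra keep nearly the same rank on the 3 arrays, while Rsad2 runs from 0.855% on array 1 to 4.92% on array 3.

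Other interferon-induced genes also lay on both sides. Of 116 listed genes 28 had a spot and 23 were tested; 10 were called higher in spleen (43.5%, against 27.8% of all tested genes) and 5 higher in liver (21.7%, against 27.1%). With each gene's own variance, and again in a test against a 2-fold difference, 2 were called in spleen and 1 in liver. Calls over all tested genes fell too, to 592 in spleen and 869 in liver with own variance. In the 2-fold test they fell to 273 and 419. Counts as small as 2 and 1 cannot show whether the difference between the sides held. The median log2 ratio of the 23 was -0.10, against -0.03 over all tested genes. The list was written with earlier results of these data known and leaves out the 5 genes described above.

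On the spleen side, the exonuclease Isg20 averaged -1.76 ± 0.14 (SD, n = 3, adjusted p = 0.000223), with all 4 of its clones between -2.16 and -1.34. Ms4a4c (-1.72 ± 0.50) followed, then the ADP-ribosyltransferase Parp14 (-1.48 ± 0.19). The ISG15 ligase Herc6 stood at -1.17 ± 0.24 and Oasl2, of the oligoadenylate synthetase family, at -1.16 ± 0.26. These 5 were above 2-fold. Smaller ratios were called for Tor3a (-0.66 ± 0.32), the ISG15-conjugating enzyme Ube2l6 (-0.66 ± 0.14) and Ifitm3, which blocks viral entry (-0.62 ± 0.44). Ifitm3 had 1 clone at -0.77 and another with a value on array 3 only, at 0.33.

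On the liver side, the aminopeptidase Lap3 stood well apart at 1.86 ± 0.28 (SD, n = 3, adjusted p = 0.000351), or 3.62-fold, with 5 clones that averaged between 1.23 and 2.49. The other 4 were the interferon-inducible GTPases Igtp (0.76 ± 0.47) and Iigp1 (0.54 ± 0.39), Cxcl11 (0.53 ± 0.27) and the nucleic acid sensor Zbp1 (0.45 ± 0.29, adjusted p = 0.0486). Lap3 was thus the only 1 of the 5 past a 2-fold ratio, on the side and near the size of Bst2. Stat2 (0.02 ± 0.03), the RNA sensor Ifih1 (-0.07 ± 0.09) and the proteasome activators Psme1 (-0.04 ± 0.16) and Psme2 (-0.14 ± 0.19) were among the 8 not called.

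Several smaller calls were lost when 1 array was left out. Without array 1 the list had 5 calls in spleen and 1 in liver, the latter Lap3, and without array 2 it had 3 in liver. Without array 1 the adjusted p was 0.161 for Cxcl11, 0.190 for Ifitm3, 0.0924 for Igtp, 0.155 for Iigp1, 0.107 for Tor3a, 0.0744 for Ube2l6 and 0.120 for Zbp1. Iigp1 (0.109) and Zbp1 (0.149) were also lost without array 2, and Tor3a (0.0686) and Zbp1 (0.0862) without array 3. Over all alternatives the adjusted p of these 7 genes ran from 0.000476 to 1.0, the upper end in the test against a 2-fold difference. A gene with a mean ratio below 2-fold cannot be called in that test. An upper end from it therefore says nothing about the main call of such a gene, here or in the other ranges over the alternatives.

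Interferon receptors and signalling genes were called on both sides, at a total share close to that of all genes (54.5% against 54.9%). Of the chains of the type I receptor, Ifnar2 was called higher in liver (1.09 ± 0.14, adjusted p = 0.00101), whereas Ifnar1 was at -0.17 ± 0.31 and not called. Ifngr1, the ligand-binding chain of the interferon-gamma receptor, was called higher in spleen (-1.78 ± 0.29, 3.44-fold, adjusted p = 0.000411). Of 11 genes tested, 4 were called higher in spleen (36.4%, against 27.8% of all tested genes) and 2 in liver (18.2%, against 27.1%), and their median was -0.09. The other calls in spleen were the STAT inhibitor Pias1 (-0.94 ± 0.14), the feedback inhibitor Socs1 (-0.67 ± 0.35) and the kinase Tyk2 (-0.51 ± 0.03), and the other in liver was the phosphatase Ptpn11 (0.51 ± 0.04). Without array 1 the calls of Socs1, Tyk2 and Ptpn11 were lost (adjusted p = 0.0982, 0.0974 and 0.0983), which left 2 in spleen and 1 in liver. Socs1 was lost without array 3 too (0.0646), and over the alternatives these 3 ran from 0.00063 to 1.0. The 2 clones of the phosphatase Ptpn2 opposed each other, at 0.65 and -0.84.

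**Figure D3:**
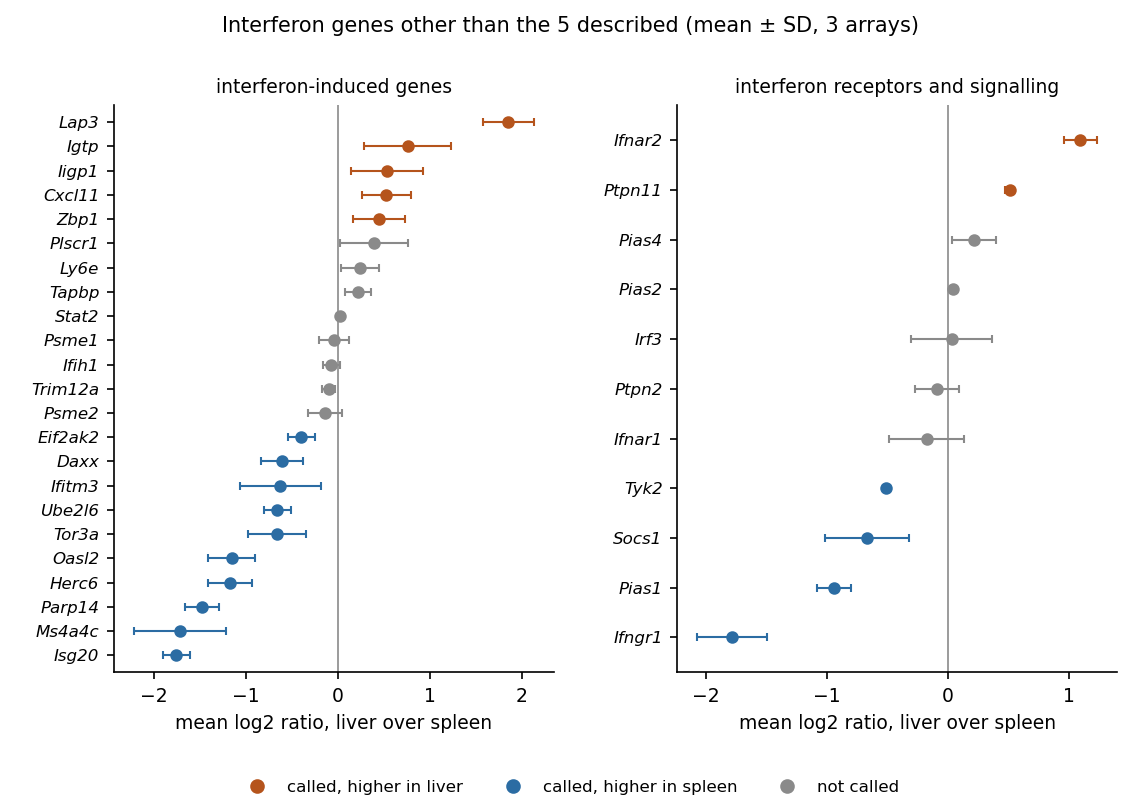
Mean log2 ratio of liver over spleen ± SD of 3 arrays for each tested interferon-induced gene (left) and interferon receptor or signalling gene (right), coloured by whether limma's test called it and on which side; the 5 genes described above are left out. Calls run from -1.76 (Isg20) to 1.86 (Lap3) on the left and from -1.78 (Ifngr1) to 1.09 (Ifnar2) on the right.

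In the list of microbe and nucleic acid sensing, the tested genes had gene means below 2-fold. Most were adaptors or NF-kB regulators, and no nucleic acid sensor of this list was tested. Of 7 genes tested, 4 were called higher in spleen (57.1%, against 27.8% of all tested genes) and 0 in liver by limma, where the count at an unadjusted p under 0.05 was also 0. The inflammasome adaptor Pycard averaged -0.93 ± 0.16, from clones at -1.31, -1.44 and -0.05. The kinase adaptor Tab1 (-0.84 ± 0.44), the lipoprotein receptor Tlr2 (-0.46 ± 0.10) and the NF-kB inhibitor Nfkbie (-0.45 ± 0.28) were also called. Tlr2 (adjusted p = 0.150) and Nfkbie (0.255) lost their calls without array 1, and Tab1 (0.0612), Tlr2 (0.0595) and Nfkbie (0.136) without array 3, which left 2 calls and 1 call. Over the alternatives these 3 ran from 0.00562 to 1.0. With each gene's own variance 1 call was left, and in limma's 2-fold test 0 (also 0 at an unadjusted p under 0.05). The 2 clones of the kinase Ikbkb lay at 0.49 and -0.75.

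Next to Cxcl10, other chemokine genes mostly showed little difference. Of 15 chemokines and receptors tested, 3 were called higher in spleen (20.0%, against 27.8% of all tested genes) and 1 in liver (6.67%, against 27.1%), with a median of -0.20. The called genes in spleen were Ccr9, Ccl12 (-0.64 ± 0.28) and the eosinophil chemokine Ccl11 (-0.38 ± 0.14), at smaller mean ratios than Cxcl10. The 2 clones of Ccl12 averaged -1.01 and 0.09. Ccl25, the ligand of CCR9, was the call in liver at 1.13 ± 0.29 (2.19-fold, adjusted p = 0.00196). Cxcl11 binds CXCR3 as Cxcl10 does and lay on the other side, at 0.64, 0.72 and 0.22 on arrays 1, 2 and 3; RefSeq lists it as a transcribed pseudogene in this assembly. Without array 1 none of the 3 spleen calls held (adjusted p = 0.106 for Ccr9, 0.0554 for Ccl12 and 0.241 for Ccl11), although 2 had an unadjusted p under 0.05. Ccl11 was also lost without array 2 (0.0609) or array 3 (0.0626), as was Ccr9 without array 3 (0.0568), which left 1 call in spleen. Over the alternatives the 3 ran from 0.000753 to 1.0.

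Complement genes lay on both sides, and all 5 tested were called in limma's moderated test. Beside C1ra, vitronectin (Vtn), which inhibits the terminal complex, was higher in liver at 4.61 ± 0.63 (adjusted p = 0.000105), through clones that averaged 5.53 and 3.68. Cd59a, a membrane inhibitor of the terminal complex, stood at 1.46 ± 0.08 and C1qbp at 0.73 ± 0.13, both higher in liver. The complement receptor Cr2 of B cells was at -3.30 ± 0.95, where 1 clone with a value on array 3 only (0.06) raised the mean, and its other clones averaged -3.89 and -4.09. Ficolin B (Fcnb), a lectin of myeloid cells, was at -1.04 ± 0.27. Of the 5 tested, 3 were called in liver (60.0%, against 27.1% of all tested genes) and 2 in spleen (40.0%, against 27.8%), and the median was 0.73. With each gene's own variance both spleen calls were lost (adjusted p = 0.0737 for Cr2 and 0.0648 for Fcnb), and the 2-fold test lost Fcnb and C1qbp (1.0 for both). Over the alternatives the adjusted p of these 3 genes ran from 1.93e-07 to 1.0.

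Beside Saa3, acute-phase genes of plasma were higher in liver, at mean ratios from 3.14 to 4.14. Of 5 tested, 4 were called in liver (80.0%, against 27.1% of all genes) and 0 in spleen by limma, nor was any at an unadjusted p under 0.05 (0 genes). Ceruloplasmin (Cp) stood at 3.14 ± 0.07, the hepcidin-family gene Hamp2 at 3.90 ± 0.16 and Ambp at 3.93 ± 0.32. Fgb also served to set the direction and is no evidence of it. It averaged 4.14 ± 1.41 with 1 clone at 4.73 and another with a value on array 3 only, at 0.73. The shared receptor subunit Il6st was not called (0.01 ± 0.22). The median of the 5 was 3.90, against 2.85 for Saa3.

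**Figure D4:**
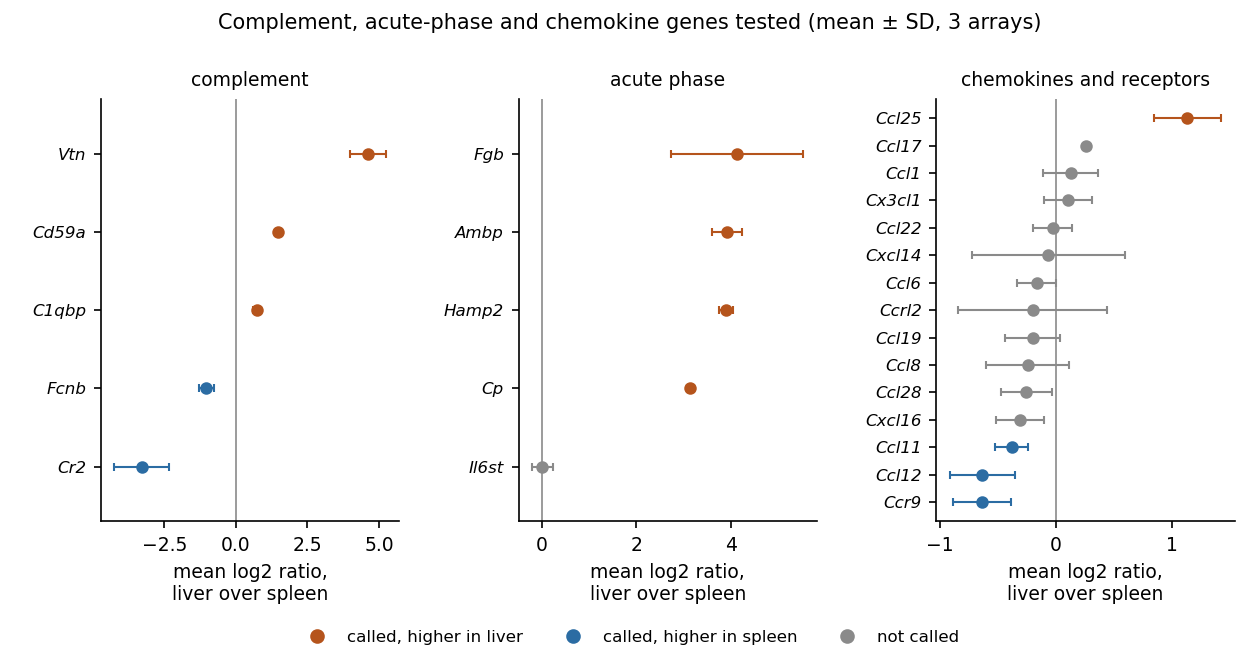
Mean log2 ratio of liver over spleen ± SD of 3 arrays for tested complement, acute-phase and chemokine genes other than the 5 described, coloured by call, each panel with its own scale. Complement genes run from -3.30 (Cr2) to 4.61 (Vtn), acute-phase genes reach 4.14 (Fgb), and chemokine genes lie between -0.64 and 1.13.

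The genes right beside Rsad2 and Saa3 that could be read lay near 0 or on the other side. Cmpk2, which lies next to Rsad2 and makes nucleotides that viperin can use, had no ratio on array 1 and was at 0.51 and 0.19 on arrays 2 and 3, where Rsad2 was at -1.98 and -1.55. Farther along, Kidins220 (-0.62 ± 0.29) and Sox11 (-0.85 ± 0.28) were called higher in spleen and Id2 (-0.26 ± 0.14) was not. Without array 1 Kidins220 and Sox11 lost their calls (adjusted p = 0.0766 and 0.0553), and over the alternatives they ran from 0.00104 to 1.0. Saal1, next to Saa3, was at -0.01 ± 0.04 and not called (adjusted p = 0.961). Of the protein-coding genes within 3 of Cxcl10 on either side, only Scarb2 had a ratio, on array 3 alone (0.42). Cxcl11, listed as a pseudogene, was left out of this search for neighbours. No protein-coding neighbour within 3 genes of Bst2 or C1ra had a ratio.

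The genes with the nearest ratios were found by the root-mean-square difference over the 3 arrays, which compares 1 tissue contrast and so mainly the size of the ratio. For Rsad2 they were Slf1, Naa30 and Cenps, at differences of 0.18, 0.24 and 0.30. For Cxcl10 they were Ccndbp1, Trak2 and Myof (0.07 to 0.08), and for Bst2 Bnip3, Abca6 and Atp5d (0.02 to 0.07). Cts3, Insig2 and Pdia5 were nearest to Saa3 (0.10 to 0.12), and Tlcd1, Mrpl12 and Paqr7 to C1ra (0.08 to 0.09). No other gene of the interferon, complement, acute-phase or chemokine lists was among these 15. Such genes were few among the 5731 tested, with 23 interferon-induced, 11 signalling, 5 complement, 5 acute-phase and 15 chemokine genes. Their absence from these 15 therefore says little.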

How the data were processed

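The deposited values are log2 ratios of both channels, 1 for each spot of an array. The log base was inferred from the values, and the sources used here do not give how the authors corrected background, normalized or filtered. Gene names came from the platform's annotation, and for 12228 of 12336 singly named spots the symbol was brought up to date through the Entrez identifier in RefSeq (GRCm38.p6). Spots with several genes (61) or none (3876) were left out. Spots of a gene were averaged per array. Genes with a value on all 3 arrays were fitted with an intercept in limma 3.58.1 (R 4.3.3, lmFit and eBayes, two-sided) and adjusted over 5731 genes with the Benjamini-Hochberg method. No array had the dyes exchanged, so dye and tissue cannot be told apart. The fit was also run on simulated data, with fewer changed genes and noise drawn from limma's fitted prior. That run says nothing about the arrays used here. The members, lists and motifs were chosen with earlier results of these data known. Named were all called interferon-induced genes up to 8 a side and up to 4 a side in other lists. Protein-coding chromosome neighbours within 3 genes and the 3 nearest genes by ratio were named too. Alternatives changed the handling of exact 0, centring, scale, the spots used, the arrays, the variance and the null. The number of arrays limits the precision.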

Additional observations from a re-analysis of the deposited data

How the results depend on the processing

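The means of the 5 genes kept their sign and moved by less than their SD with exact 0 kept as a value, arrays centred or scaled, the median of complete spots and AK clones only (Cxcl10 has no AK clone). With 1 array left out they ranged from -2.42 to -1.77 (Rsad2), -1.65 to -1.48 (Cxcl10), 1.39 to 1.78 (Bst2), 2.81 to 2.91 (Saa3) and 2.09 to 2.21 (C1ra), without a test. With each gene's own variance 869 genes were called in liver and 592 in spleen, and against a 2-fold difference 419 and 273. With 1 array left out, over the same 5731 genes, these counts ran from 936 to 1524 and from 937 to 1644, both lowest without array 1. Interferon-induced calls in liver (5) fell to 3 with centred arrays or values on at least 2 arrays, and to 1 with exact 0 kept, own variance or the 2-fold test. Those in spleen (10) fell to 2 with own variance and with the 2-fold test. Signalling calls in spleen (4) became 2 with AK clones and 1 in the 2-fold test, which left 0 in liver. Sensing calls in spleen (4) became 2 with exact 0 kept, 1 with own variance and 0 in the 2-fold test. Complement calls in spleen (2) became 0 with own variance (2 at an unadjusted p under 0.05), 1 in the 2-fold test and 4 with values on at least 2 arrays. Chemokine calls in spleen (3) became 0 with own variance (2 at an unadjusted p under 0.05), and the 2-fold test left 0 on either side. The 1 chemokine call in liver had no AK clone, which left 0. Where limma's 2-fold test or AK clones left 0, the count at an unadjusted p under 0.05 was 0 too. Leaving out 1 array gave 1 to 4 and 5 to 10 interferon-induced calls in liver and spleen, 1 to 2 and 2 to 4 signalling calls, 1 to 4 sensing calls in spleen and 0 to 3 chemokine calls in spleen; the other list counts were unchanged. Of 55 named genes, 47 were called; 28 lost their call with own variance, 30 in the 2-fold test, 18 without array 1 and 13 with exact 0 kept, and no called gene turned its sign. No paired analysis was possible because the arrays form 1 group. Signal over background is unknown.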

Other observations

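Secreted and granule antimicrobial genes lay on the side of Rsad2 and Cxcl10. Of 5 tested, 4 were called higher in spleen (80.0%, against 27.8% of all tested genes) and 0 in liver by limma (against 27.1%). No gene (0) had an unadjusted p under 0.05 in liver. The neutrophil granule protein Ngp stood at -3.68 ± 0.31 (SD, n = 3), the calprotectin subunit S100a9 at -3.21 ± 0.76, the protease inhibitor Slpi at -2.58 ± 0.11 and the oxidase subunit Cyba at -1.57 ± 0.15. All 3 neutrophil markers tested were also called higher in spleen (median -3.21), and 2 of them, Ngp and S100a9, are in both lists. Their part in these ratios was not tested.

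Several defence genes had a ratio on 2 arrays only and entered no test. C8g, a chain of the terminal complement complex, was at 5.95 and 5.30 on arrays 1 and 2. The integrin Itgax was at -2.33 and -1.51, the complement regulator Cd46 at -1.36 and -1.81, the chemokine Xcl1 at -1.39 and -1.30, and Nfkb2 at -1.19 and -0.91 on arrays 1 and 3. These genes were chosen after their values were seen.

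The ISRE letters GAAANNGAAA occurred in 2.40% of 1624 promoter windows of genes called in liver, 2.56% of 1639 windows of genes called in spleen and 2.34% of 2610 windows of genes not called. Of the 17 tested interferon-induced genes with a window, 2 held it, Igtp and Stat2. By call these were 1 of 2 genes in liver, 0 of 8 in spleen and 1 of 7 not called.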
